A study of Mus musculus with 8 samples.

Results

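In this study 5 S100 genes and 5 annexin genes were followed across mouse bile duct and pancreatic duct epithelia and the organoids grown from them. They were S100a4, S100a6, S100a10, S100a11, S100a14, Anxa1, Anxa2, Anxa3, Anxa4 and Anxa8, taken by gene name, and all 10 were found among the 31228 genes of the deposited table. Organoids are cultures of epithelial cells grown as hollow 3-dimensional structures in a gel matrix. All samples came from C57BL/6 mice of unstated age and sex, with no genetic change named. The groups were 1 library of extrahepatic bile duct epithelium, 1 of pancreatic duct epithelium, 3 of bile duct organoids and 3 of pancreatic duct organoids.

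The epithelia were dissected ducts, minced, treated with collagenase IV and put directly into Trizol. The organoids were grown in Matrigel for 3 to 4 passages. Their medium held B27, N-acetylcysteine, EGF, R-Spondin-1, Noggin, FGF10 and nicotinamide, with Wnt3A conditioned medium and Y27632 until hollow organoids had formed. Hereafter BD stands for bile duct and PD for pancreatic duct. Medium and gel were part of every organoid sample and of neither epithelium, so effects of culture, passage and loss of other cell types cannot be told apart. The labels do not say whether organoids of a group came from separate mice, so the spread between them may be technical. The p-values measure this spread and, for organoids against epithelia, also any difference between the organs in that change. Neither epithelium had a replicate, so no p-value covers variation between samples of the same epithelium.

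S100 proteins are small calcium-binding proteins with EF-hand motifs, most of which act as dimers that bind a partner protein when calcium rises. Annexins bind acidic phospholipids of membranes in a calcium-dependent way and take part in membrane repair, vesicle traffic and the link between membrane and actin. The families meet in complexes: S100A10 binds annexin A2 without needing calcium, and S100A11 binds annexin A1 when calcium rises.

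Values were read as FPKM, which is reads scaled to exon length and library depth. No header names the unit, which was inferred from the values. FPKM allow levels of different genes in a library to be set side by side. Libraries held an estimated 12876466 to 20828195 reads or pairs, recovered from the FPKM steps. Of the 10, 9 members rested on at least 29 reads in every library, and S100a4 had between 0 and 4. The mitochondrial genome held 24.9% and 18.8% of summed FPKM in BD and PD epithelium and 5.43% to 7.29% in the organoids.

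The epithelial libraries held RNA of other cell types, which bears on every comparison with organoids. Markers of fibroblasts summed to 1718 FPKM in BD and 1768 FPKM in PD epithelium, against 0.332 to 3.12 FPKM in the organoids, with 10 of 10 genes under 1 FPKM in every organoid. Macrophage markers summed to 691 and 510 FPKM in the epithelia and 2.97 to 13.8 FPKM in the organoids. Pancreatic acinar markers summed to 15975 and 32168 FPKM in the epithelia and 2.31 to 9.18 FPKM in the organoids. Epithelial markers such as Epcam and Krt19 went the other way, with 2350 FPKM in BD epithelium, 501 FPKM in PD epithelium and 4817 to 11353 FPKM in the organoids. In such bulk samples, fewer cells of a type and less RNA per cell cannot be told apart.

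The 10 genes together took 0.395% of summed FPKM in BD epithelium and 0.286% in PD epithelium. In the organoids they took between 0.935% and 1.51%. Without the mitochondrial genome in the sum, these shares were 0.525%, 0.352% and 0.996% to 1.63%. By the mean over 6 organoids, S100a11 had 1075 ± 420 FPKM, S100a6 913 ± 163 and Anxa2 765 ± 156 (SD, n = 6 organoids). These means lay within their spread of each other. S100a6 exceeded S100a11 in BD organoids 2 and 3 and PD organoid 3, and the mean of S100a11 was raised by organoid 1 of each organ. S100a11 ranked between the 9th and the 28th most abundant of all genes. S100a10 came next with 343 ± 56.4 FPKM. Anxa3 (204 ± 45.0), S100a14 (201 ± 90.6), Anxa4 (188 ± 26.0), Anxa1 (177 ± 46.2) and Anxa8 (140 ± 72.8) followed, each within the spread of the next (FPKM, SD, n = 6 organoids).

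**Figure D1:**
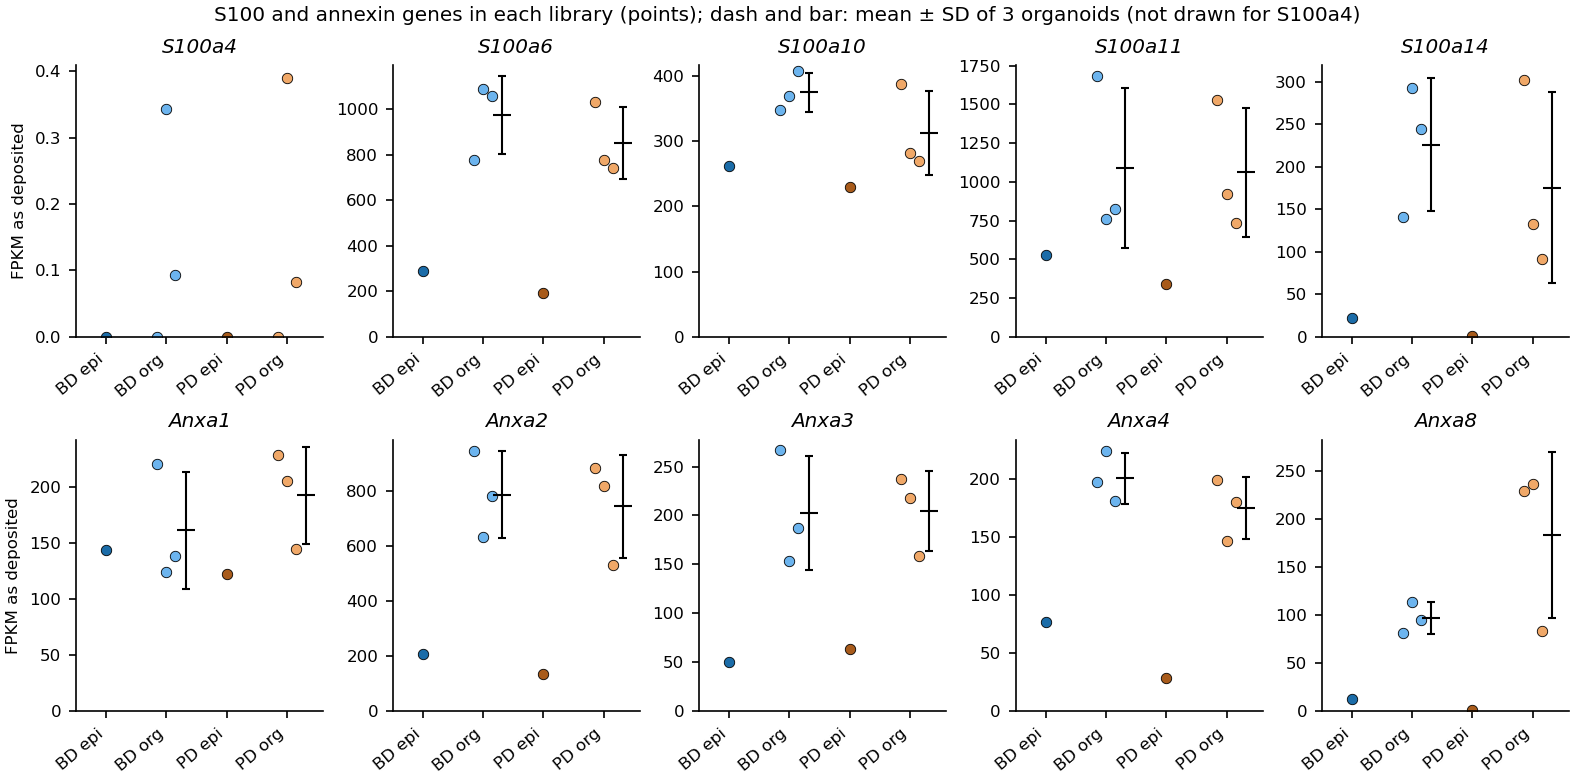
FPKM as deposited (vertical axes, each from 0) of the 10 genes in BD and PD epithelium and organoids; points are libraries, and dash and bar give mean and SD of 3 organoids. All 6 organoids lie above both epithelia for S100a6, S100a10, S100a11, S100a14, Anxa2, Anxa3, Anxa4 and Anxa8, while S100a4 stays under 0.4 FPKM everywhere.

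The organoids were first compared with the epithelia of both ducts, with organ as a term in the model. In all, 6 members rose in organoids: S100a6, S100a14, Anxa2, Anxa3, Anxa4 and Anxa8 (limma, Benjamini-Hochberg adjusted p under 0.05 over 14919 genes). None fell. S100a10, S100a11 and Anxa1 did not pass, and S100a4 was too low to be tested, so 9 of the 10 members entered the test. Over all genes tested, 32.3% were called higher and 27.0% lower in organoids, so a call is common in this comparison. The median log2 change was 1.77 over the 9 tested members and 0.11 over all genes. Every organoid lay above both epithelia in 7 of the 9 members on scaled values, against 35.3% of all genes. The epithelial marker list moved with the members: 8 of its 10 genes rose, with a median log2 change of 2.55. Its part in the members' change was not tested.

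S100a6 (ENSMUSG00000001025, chromosome 3, 90612882 to 90624181) encodes calcyclin, a small calcium sensor found in many proliferating epithelia and fibroblasts. It had 290 FPKM in BD and 194 FPKM in PD epithelium. The BD organoids had 777, 1089 and 1057 FPKM, and the PD organoids 1034, 779 and 742. Every organoid exceeded either epithelium, and the organoid groups overlapped. The log2 rise was 1.77 (SE 0.21, 2 epithelia and 6 organoids, limma adjusted p = 3.77e-04), or 3.42-fold.

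S100a14 (ENSMUSG00000042306, chromosome 3, 90526856 to 90528837) encodes an epithelial S100 protein. It had 22.6 FPKM in BD epithelium and 1.42 FPKM in PD epithelium, where it rested on 38 reads (exact 95% Poisson interval 26.9 to 52.2, counting error only). BD organoids had 140, 293 and 245 FPKM and PD organoids 303, 133 and 91.9. The lowest organoid was thus well above the higher epithelium, while organoids of 1 group differed by up to several-fold. The log2 rise was 4.48 (SE 0.71, limma adjusted p = 0.00142). It was 3.07 without the PD epithelium and 5.91 without the BD epithelium, so its size depended on which epithelium was used.

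Anxa8 (ENSMUSG00000021950, chromosome 14, 34085981 to 34100571), an annexin of stratified and injured epithelia that associates with late endosomes, had a similar pattern. It had 12.3 FPKM in BD epithelium and 0.998 FPKM, from 29 reads, in PD epithelium. BD organoids had 81.6, 114 and 94.4 FPKM, and PD organoids 229, 236 and 83.2. Of the PD organoids, 2 stood above all BD organoids. The third was within their range by FPKM as deposited and below it on scaled values (78.2 against 83.9 to 108). The log2 rise was 4.51 (SE 0.79, limma adjusted p = 0.00231), with 2.74 without the PD epithelium and 6.30 without the BD epithelium.

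Anxa2 (ENSMUSG00000032231, chromosome 9, 69453620 to 69491795) encodes the partner of S100A10 at the plasma membrane, where the complex binds plasminogen and actin. It had 209 and 136 FPKM in BD and PD epithelium. BD organoids had 946, 632 and 783 FPKM, and PD organoids 882, 818 and 531. The organoid groups overlapped and lay apart from both epithelia. The log2 rise was 2.00 (SE 0.29, limma adjusted p = 9.56e-04).

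Anxa3 (ENSMUSG00000029484, chromosome 5, 96793339 to 96845966) had 50.3 FPKM in BD and 63.8 FPKM in PD epithelium. It had 267, 153 and 187 FPKM in BD organoids and 238, 218 and 159 FPKM in PD organoids. All organoids lay above both epithelia, with a log2 rise of 1.65 (SE 0.28, limma adjusted p = 0.00179). Anxa4 (ENSMUSG00000029994, chromosome 6, 86736840 to 86793584), an annexin of polarised secretory epithelia, had 76.7 FPKM in BD and 28.8 FPKM in PD epithelium. Its organoid values were 197, 224 and 181 FPKM for BD and 200, 146 and 180 FPKM for PD. They were the most even among the members, with a residual SD of 0.20 (log2) within groups, and the rise was 1.82 (SE 0.27, limma adjusted p = 0.00105). The rise was 1.23 without the PD epithelium and 2.41 without the BD epithelium, so its size depended on which epithelium was used.

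The other 3 tested members did not pass. S100a10 (ENSMUSG00000041959, chromosome 3, 93555080 to 93564643), which lacks calcium binding and is held by annexin A2, had 261 and 230 FPKM in BD and PD epithelium. BD organoids had 348, 369 and 407 FPKM, and PD organoids 386, 281 and 269. The log2 difference was 0.32 (SE 0.17, limma adjusted p = 0.154), with a 95% interval from -0.09 to 0.73. With FPKM as deposited it was 0.47 (limma adjusted p = 0.0452), and with libraries set to an equal sum without mitochondrial genes 0.50 (limma adjusted p = 0.0307), so its call rested on the scaling. Over the alternatives that kept both epithelia the limma adjusted p ran from 0.0307 to 0.234. The log2 difference was 0.38 without the PD epithelium and 0.28 without the BD epithelium.

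Anxa1 (ENSMUSG00000024659, chromosome 19, 20373428 to 20390944) encodes a glucocorticoid-regulated annexin that dampens inflammation through formyl peptide receptors. It had 144 FPKM in BD and 122 FPKM in PD epithelium. BD organoids had 221, 125 and 139 FPKM, so 2 of the 3 were below their own epithelium, and PD organoids had 229, 206 and 145. The log2 difference was 0.23 (SE 0.31, limma adjusted p = 0.551, 95% interval from -0.50 to 0.96). It was -0.02 without the PD epithelium. Anxa1 passed under no alternative that kept both epithelia.

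S100a11 (ENSMUSG00000027907, chromosome 3, 93520488 to 93526287) encodes a growth-regulating S100 protein that binds annexin A1. It had 529 FPKM in BD and 341 FPKM in PD epithelium. BD organoids had 1685, 759 and 824 FPKM and PD organoids 1530, 919 and 734. All organoids were above both epithelia, and organoid 1 of each organ was far above the others. The log2 difference was 1.11 (SE 0.44, limma adjusted p = 0.0646, 95% interval from 0.07 to 2.15). With FPKM as deposited it was 1.26 (limma adjusted p = 0.0310), and with an equal sum without mitochondrial genes 1.29 (limma adjusted p = 0.0267). Over the alternatives that kept both epithelia the limma adjusted p ran from 0.0267 to 0.109. The log2 difference was 0.80 without the PD epithelium and 1.42 without the BD epithelium.

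The value of S100a11 is also uncertain because other genes share stretches of its sequence. Of the 50-base words in S100a11 transcripts, 41.1% also occurred in transcripts of 3 other genes (GENCODE M21), against 47.4% for S100a4, 1.35% to 1.79% for Anxa2, Anxa3 and Anxa4, and 0% for the other 5 members. The copy Gm12854 (chr4:116067268-116067564, GRCm38, plus strand) differed from the S100a11 coding sequence (chr3:93524059-93526147, plus strand, introns removed) at 3 of 297 bases, T240C, G241A and C289T, counted from the A of the start codon, S100a11 first. Both are shown because reads from most of this stretch cannot be told apart, with the differing bases in capitals.
S100a11 coding sequence: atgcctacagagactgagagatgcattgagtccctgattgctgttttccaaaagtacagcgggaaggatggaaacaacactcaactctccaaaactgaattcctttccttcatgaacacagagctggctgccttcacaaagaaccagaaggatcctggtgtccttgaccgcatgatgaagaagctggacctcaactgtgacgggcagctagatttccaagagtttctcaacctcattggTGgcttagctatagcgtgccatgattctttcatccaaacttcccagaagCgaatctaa
Gm12854: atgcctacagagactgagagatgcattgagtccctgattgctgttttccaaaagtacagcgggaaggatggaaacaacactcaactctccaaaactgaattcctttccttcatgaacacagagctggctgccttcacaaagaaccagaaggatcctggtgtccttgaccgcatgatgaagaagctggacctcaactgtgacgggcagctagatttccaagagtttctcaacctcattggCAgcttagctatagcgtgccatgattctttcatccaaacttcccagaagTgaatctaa
Gm12854 was listed at 29.0 and 33.3 FPKM in BD and PD epithelium and at 111 to 251 FPKM in the organoids. Gm7665, which shares 50-base words with S100a11 but was not aligned to it, was listed at 79.1 to 83.7 and 134 to 292 FPKM. With the reads of both genes added to S100a11, an alternative chosen after these values were seen, the log2 rise was 1.17 (SE 0.43, limma adjusted p = 0.0484). The call for S100a11 therefore lay at the threshold.

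S100a4 (ENSMUSG00000001020, chromosome 3, 90603771 to 90606045), known from fibroblasts, macrophages and migrating cells, was listed at 0 FPKM in both epithelia. It was also listed at 0 in BD organoid 1 and PD organoid 1, and it had 4 reads in organoid 2 and 1 read in organoid 3 of each organ. These came to 0.343 and 0.0931 FPKM in BD and to 0.389 and 0.0822 FPKM in PD organoids, and 3 reads correspond to 0.247 to 0.399 FPKM in these libraries. These values came beside 1718 and 1768 FPKM of fibroblast markers and 691 and 510 FPKM of macrophage markers in the epithelia. In GENCODE M21, 302 of its 584 exon bases (51.7%) are also exon of Gm42674, a gene on the same strand that joins S100a3 and S100a4 and is not among the genes listed. The shared part covers the first 287 of 306 coding bases. The coding part of the last exon (chr3:90605740-90605904, GRCm38, plus strand) is shown to make that extent visible, with the bases that are not in Gm42674 in capitals.
S100a4 last coding exon: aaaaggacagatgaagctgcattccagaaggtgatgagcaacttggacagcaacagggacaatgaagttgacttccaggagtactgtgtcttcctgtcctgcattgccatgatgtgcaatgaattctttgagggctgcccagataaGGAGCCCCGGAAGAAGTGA
HTSeq, which by default leaves out reads that fall on exons of more than 1 gene, is among the tools in the submitters' processing notes. Of 187 protein-coding genes with at least 50% of exon bases shared on the same strand, 70.6% stayed under 1 FPKM in every library, against 26.1% of 17088 genes with none shared. Whether S100a4 lost reads in this way was not tested, so its values are not read as absence of expression. No other member shared more than 3.07% of its exon bases with another gene.

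**Figure D2:**
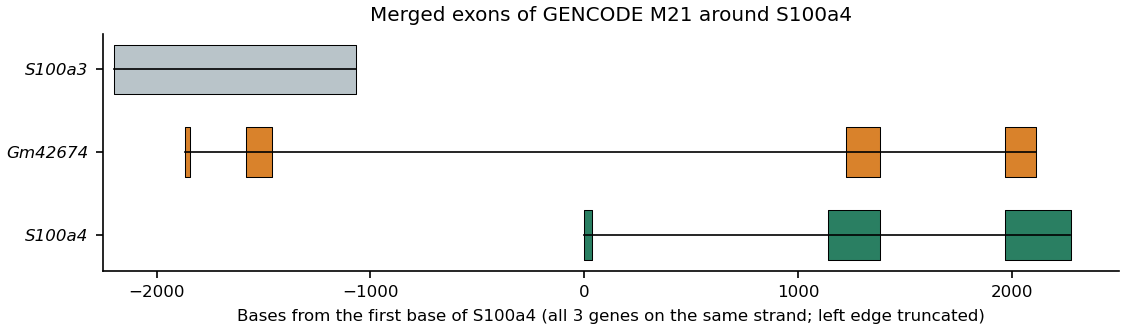
Merged exons (boxes) of S100a4, Gm42674 and S100a3 in GENCODE M21, with distance from the first base of S100a4 in bases on the horizontal axis. The last 2 exons of Gm42674 lie within S100a4 exons, and 51.7% of S100a4 exon bases are shared.

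Changes within an organ were taken from its single epithelium to its 3 organoids, without a test. From BD epithelium to organoid, 6 of the 9 members were at least 2-fold higher with all 3 organoids on the same side, and 0 were lower. Over all 15227 genes, 14.7% were higher and 24.6% lower by this rule. From PD epithelium to organoid, 7 of the 9 were higher and 0 lower, against 17.9% and 23.3% of 14984 genes. The additional gene was S100a11, at 0.79 ± 0.70 in BD and 1.42 ± 0.58 in PD (log2, SD, n = 3 organoids each). In BD it was 1.02 without organoid 2, which gave 7 of 9 there too, and 0.41 without organoid 1. The median log2 change of the 9 members was 1.58 in BD and 1.97 in PD. The median of the epithelial list was 1.43 and 3.68. These changes share the single epithelium of their organ with the levels given for it, and the part of epithelial RNA in the members' changes was not tested.

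The widest gaps between the organs were those of Anxa8 and S100a14. Anxa8 was higher in organoids by 2.72 ± 0.19 in BD and by 6.29 ± 0.90 in PD, and S100a14 by 3.05 ± 0.49 and 5.91 ± 0.91 (log2, SD, n = 3 organoids each). With a pseudocount of 0.1 the PD changes were 7.10 for Anxa8 and 6.53 for S100a14. For Anxa4 the change was 1.22 ± 0.18 and 2.41 ± 0.22. For Anxa3 the order was turned, with 1.80 ± 0.47 in BD and 1.51 ± 0.35 in PD. Since each epithelium was 1 library, these differences between organs were not tested.

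**Figure D3:**
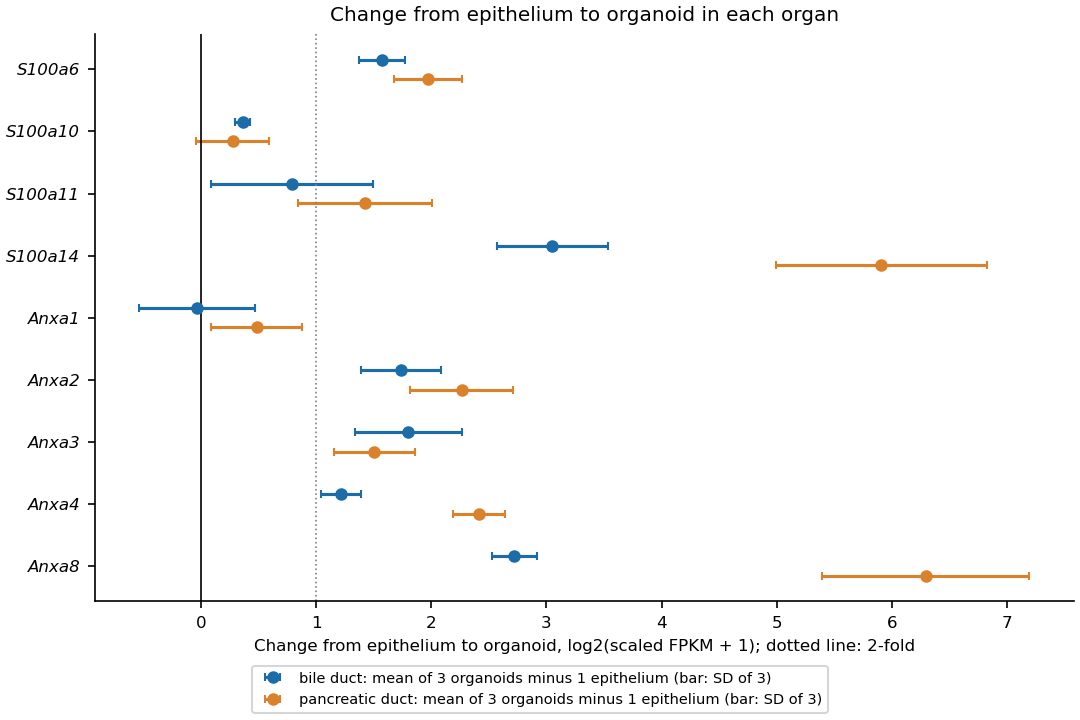
Change from epithelium to organoid on the log2(scaled FPKM + 1) scale for 9 genes; points are the mean of 3 organoids minus the single epithelium of that organ, and bars the SD of the 3. Anxa8 and S100a14 have the widest changes and the widest gap between organs, and S100a10 and Anxa1 have the narrowest changes.

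Between the epithelia, which share these libraries with the comparisons above, 3 of the 9 members were at least 2-fold higher in BD and 0 in PD. The background was 9.07% and 4.31% of 15092 genes. S100a14 differed by 3.32, Anxa8 by 2.78 and Anxa4 by 1.38 (log2, pseudocount 1). With a pseudocount of 0.1 the differences were 3.90 for S100a14 and 3.50 for Anxa8, whose PD values are low. Each of the 10 epithelial markers was at least 2-fold higher in BD epithelium too, with a median of 1.92, and its part was not tested. S100a11, Anxa2 and S100a6 were higher in BD by 0.63, 0.61 and 0.58, Anxa1 by 0.23 and S100a10 by 0.18, and Anxa3 was lower by 0.34. With 1 library on each side, these differences have no replicate check.

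The organoids of both organs were then compared with each other. Of the 9 tested members, 0 differed between BD and PD organoids at an adjusted p under 0.05, and 0 at an unadjusted p under 0.05 (limma, 12106 genes). Over all genes 0 passed the adjusted threshold (0% called) and 310 (2.56%) the unadjusted one. No member had organoid groups that did not overlap, against 6.68% of all genes. Anxa8 had the widest difference, at -0.79 for BD minus PD (log2, SE 0.43, n = 3 organoids each, limma unadjusted p = 0.116, 95% interval from -1.85 to 0.26). It was -1.31 without PD organoid 3 (SE 0.15, limma adjusted p = 0.180) and -0.50 without PD organoid 2, so its size depended on single cultures. For S100a14 the difference was 0.47 (95% interval from -0.71 to 1.65), with 0.07 without PD organoid 3 and 0.98 without PD organoid 1, and for S100a11 0.00 (95% interval from -1.05 to 1.05). These intervals leave room for differences of more than 2-fold. The narrowest was that of Anxa4, at 0.19 with a 95% interval from -0.20 to 0.57.

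Single cultures differed too, both within an organ and across organs. PD organoid 3 was lowest in 6 of the 9 members on scaled values, and BD organoid 1 and PD organoid 1 were each highest in 3. Over all 6 organoids, the highest exceeded the lowest by 3.50 times for S100a14, 3.02 times for Anxa8 and 2.51 times for S100a11, and by 1.46 to 1.95 times for the other 6. Within groups the residual SD was 0.73 for S100a14, 0.65 for Anxa8 and 0.65 for S100a11 (log2), against a median of 0.20 over 840 genes of high expression. The epithelial marker list summed to 10138, 6765 and 7220 FPKM in BD organoids 1 to 3 and to 11353, 9038 and 4817 FPKM in PD organoids 1 to 3. The 10 genes summed to 4664, 3758 and 3918 FPKM in BD and to 5030, 3737 and 2935 FPKM in PD organoids, in the same sequence. PD organoid 1 was highest and PD organoid 3 lowest in both sums, while PD organoid 2 was above BD organoids 2 and 3 in the marker sum and below them in the sum of the 10 genes.

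The ratio of the binding partners was taken within each library. FPKM of S100a10 was 1.25 times that of Anxa2 in BD and 1.69 times in PD epithelium. In BD organoids the ratio was 0.368, 0.583 and 0.520, and in PD organoids 0.438, 0.344 and 0.507. All 6 organoids, at 0.460 ± 0.0932 (SD), were below both epithelia. The ratio of S100a11 to Anxa1, taken from listed S100a11 values that are uncertain because of shared sequence, went the other way. It was 3.68 and 2.78 in the epithelia, 7.63, 6.09 and 5.93 in BD organoids and 6.70, 4.46 and 5.08 in PD organoids.

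**Figure D4:**
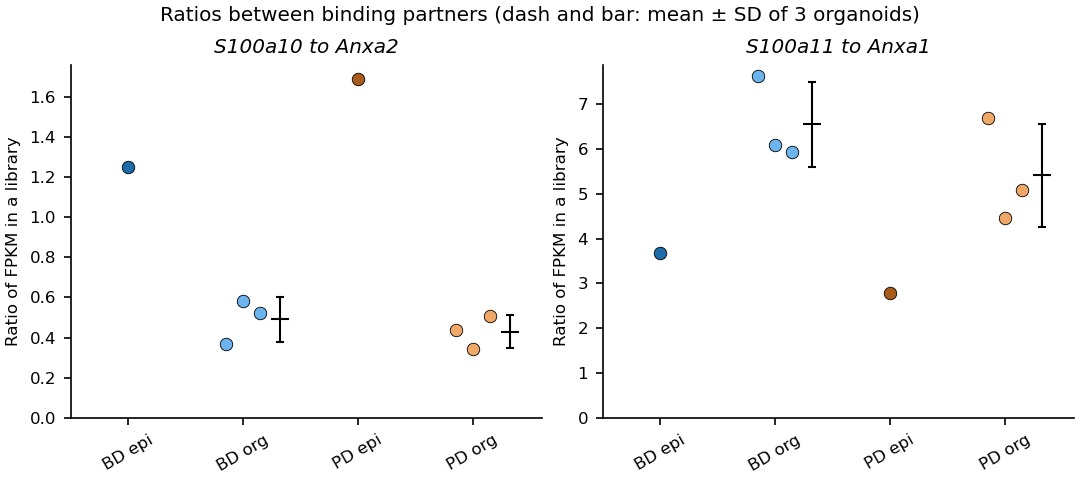
Ratio of FPKM of S100a10 to Anxa2 (left) and of S100a11 to Anxa1 (right) in each library, with dash and bar for mean and SD of 3 organoids. The first ratio is lower in all 6 organoids than in both epithelia and the second is higher.

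Other genes of both families were taken as lists. Of 11 other S100 genes, 8 were tested: 0 rose, 4 fell (S100a1, S100a13, S100b and S100g) and the median log2 change was -0.98. S100a13, which takes part in the release of proteins without a signal peptide, fell from 64.1 and 73.8 FPKM in the epithelia to 15.9 to 25.1 FPKM in the organoids (log2 -1.92, SE 0.21, limma adjusted p = 2.32e-04). S100b, a marker of Schwann cells and glia, fell from 19.7 and 11.8 FPKM to 0.550 to 3.44 FPKM (log2 -2.97, limma adjusted p = 2.89e-04). Nerve and Schwann cell markers fell beside it in 6 of 7 tested genes, and their part was not tested. S100g, an intestinal vitamin D-dependent calcium buffer, had 100.0 FPKM in BD and 6.74 FPKM in PD epithelium and 0.104 to 8.19 FPKM in the organoids. S100a3, S100a5 and S100z stayed under 1 FPKM in every library.

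The S100 genes of chromosome 3 lie next to each other, and in 1 case neighbours moved in opposite directions. S100a14 begins 2275 bases after the end of S100a13, and the former rose by 4.48 while the latter fell by 1.92 on the log2 scale. S100a16, the next gene, had a log2 difference of -0.44 (SE 0.30, limma adjusted p = 0.236). S100a11 and S100a10 lie apart from the other S100 genes, after a gap of 2824767 bases.

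**Figure D5:**
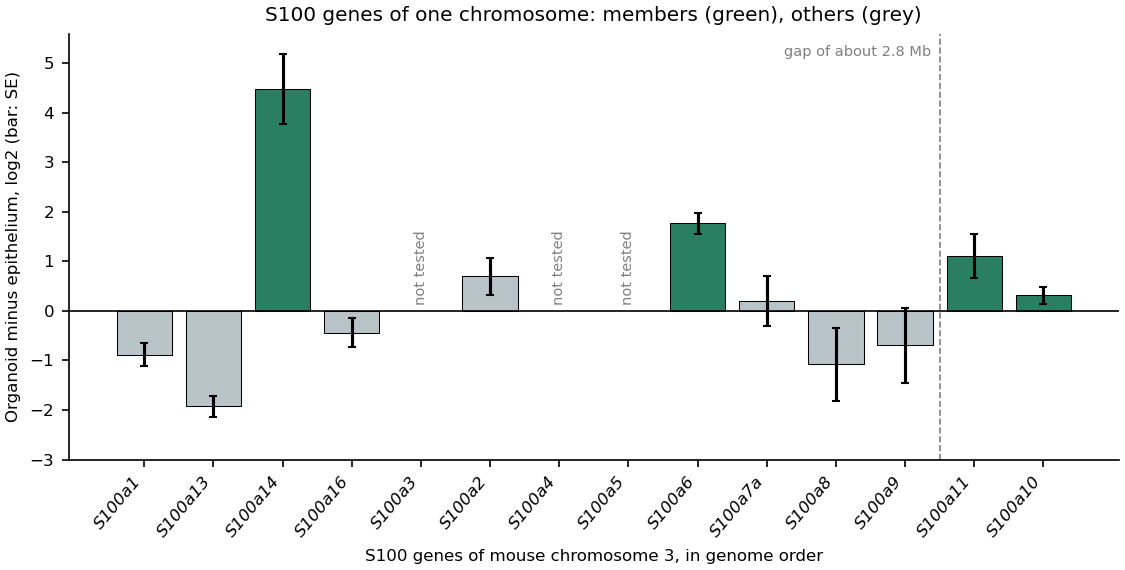
Log2 change of organoids against epithelia (bars, with SE) for the S100 genes of mouse chromosome 3 in genome order; green bars are the described genes, grey bars other S100 genes, and 3 genes were too low to test. S100a14 stands between S100a13, which fell, and S100a16, which did not pass.

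Of 7 other annexins, all tested, Anxa13 rose and Anxa11 fell, with a median log2 change of -0.52. Anxa13, the annexin of intestinal and renal epithelium, had 95.6 and 35.4 FPKM in BD and PD epithelium and 112 to 227 FPKM in the organoids (log2 1.31, SE 0.41, limma adjusted p = 0.0293). Anxa5 and Anxa6, which are widely expressed, had log2 differences of -0.66 and -0.56 and did not pass (limma adjusted p = 0.312 and 0.320).

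Of 14 listed partners and receptors 13 were in the table and 10 were tested, of which 2 rose and 2 fell, with a median log2 change of 0.06. Those that rose were Plaur, the urokinase receptor (log2 1.86, SE 0.32, limma adjusted p = 0.00222), and Myof, a ferlin of membrane repair (log2 1.64, SE 0.27, limma adjusted p = 0.00156). Dysf, the ferlin of muscle, fell by 2.77, and Plgrkt, a plasminogen receptor, fell by 0.75 on the log2 scale. Smooth muscle and endothelial markers (8 of 8 genes each) and fibroblast, macrophage and acinar markers (10 of 10 genes each) fell as well, and their part was not tested. Ahnak, a giant scaffold bound by S100A10 and annexin A2, had a log2 difference of 0.50 (limma adjusted p = 0.173). Among receptors for secreted S100 proteins and annexin A1, Ager, Fpr1 and Fpr2 stayed under 1 FPKM in the organoids, and Tlr4 had 4.52 to 8.18 FPKM there.

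Genes with the most similar pattern were sought by the root mean square difference of centred log2 values over the 8 libraries, among 7937 genes. Anxa3 was closest to Myof (0.09), a gene of the partner list, and Rab38 (0.11). S100a14 was closest to Sprr2a3 (0.49) and Krt7 (0.60), and Anxa8 to Wnt7b (0.55) and Areg (0.59). S100a6 was closest to Rassf7 (0.11) and Ap1s1 (0.12), Anxa2 to Lpcat4 (0.14) and Eif6 (0.15), and Anxa4 to Fam83b (0.13) and Sowahb (0.15). S100a11 was closest to Gm7665 (0.18), its own near-identical copy, and Dynlt1f (0.21). S100a10 was closest to Lrrc75a (0.09) and Rnh1 (0.10), and Anxa1 to Tax1bp3 (0.10) and Cd81 (0.11). At the level of S100a4 the measure says little, and its nearest genes are not given.

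Promoters were searched because 6 members moved in 1 direction. RefSeq windows for build GRCm38.p6 were matched for 7 members, S100a4, S100a6, S100a11, Anxa1, Anxa2, Anxa4 and Anxa8, with 2 windows for Anxa4. The other members are S100a10, S100a14 and Anxa3. In the 250 bases before the start, the AP-1 motif, TGAGTCA or TGACTCA on either strand, was found in Anxa2, 95 bases before the start, and at 2 places in S100a11. Over all 32851 windows, 4.46% held at least 1 match and 0.167% at least 2. Both promoters are shown with the AP-1 letters in capitals, for Anxa2 chr9:69453433-69453682 and for S100a11 chr3:93520246-93520495, both on the plus strand of GRCm38.p6. Of the other 3 motifs searched on both strands, the GC box (GGGCGG or CCGCCC) was found in Anxa2 and S100a11 and in 32.7% of all windows. The TATA box (TATAAA or TTTATA) was found in Anxa1, Anxa2 and S100a4 and in 12.4% of all windows. The TEAD motif (GGAATG or CATTCC) was found in Anxa1 and in 12.6% of all windows.
Anxa2 promoter: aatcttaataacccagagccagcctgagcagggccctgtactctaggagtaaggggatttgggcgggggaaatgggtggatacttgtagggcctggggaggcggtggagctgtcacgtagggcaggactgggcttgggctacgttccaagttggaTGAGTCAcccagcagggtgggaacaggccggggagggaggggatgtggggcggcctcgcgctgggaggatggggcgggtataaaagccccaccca
S100a11 promoter: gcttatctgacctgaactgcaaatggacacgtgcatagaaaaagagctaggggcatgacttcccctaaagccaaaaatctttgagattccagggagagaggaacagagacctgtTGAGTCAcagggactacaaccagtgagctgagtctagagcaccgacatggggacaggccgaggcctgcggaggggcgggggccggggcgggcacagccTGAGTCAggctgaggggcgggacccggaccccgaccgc
The windows of S100a6, Anxa4 and Anxa8, which rose, held no AP-1 match. A match describes letters and not binding.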

How the data were processed

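Polyadenylated RNA of 8 libraries was sequenced after NEBNext Ultra library preparation, per the labels' protocols. The authors deposited 1 table whose values were taken as FPKM, with 1 column per library and 0 columns left aside. Its header names no unit. FPKM was inferred because the values are not whole, their sums differ between libraries and they follow steps per exon length. The submitters' processing notes name Bowtie2 2.2.3, HISAT2 2.1.0, TopHat2 and HTSeq 0.6.0 without a role. Build, annotation, filters and strand setting are not given in the sources used here. Multiplied by GENCODE M21 exon length, values of 28251 genes (90.5%) were whole multiples of 1 step per library, within 0.05 of a read, which gave read numbers. Coordinates are those of the table. Of 31099 genes matched to GENCODE M21 (GRCm38), 28577 had identical ones there.

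FPKM was scaled between libraries by a trimmed mean of log ratios (30% of ratios and 5% of levels trimmed on each side), over all 8 libraries or, between organoids, over 6. Tests used limma 3.58.1 in R 4.3.3 with a mean-variance trend on log2(FPKM + 1), which understates changes of weakly expressed genes, and Benjamini-Hochberg adjustment over all genes with at least 1 FPKM in 2 libraries (3 for organoids). Organoids were compared with epithelia with organ as a term. Planned comparisons with 1 library on a side had no test, and log2 differences of at least 1 were counted. The fits that left out 1 epithelium set the other alone against the organoids. Their calls rest on the spread between organoids only. Intervals cover counting error only where read numbers are given. Alternatives covered scaling, pseudocount, filter, variance estimate, replicate block and leaving out each library. Fits were tested on simulated data. The members and gene lists were chosen with earlier results of these data known. Genes named are the 10 members, listed genes and Gm42674, which overlaps S100a4. For each member but S100a4, the 2 genes nearest in pattern among those with at least 10 FPKM in 1 library are named too. Gm12854 and Gm7665, and S100a2 in the plot of chromosome 3, were added after values were seen. Python 3.11.15, pandas 2.3.3, numpy 2.4.6, scipy 1.17.1 and matplotlib 3.10.9 were used.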

Additional observations from a re-analysis of the deposited data

Results flagged for a closer look

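For 2 genes of the families, every bile duct organoid lay below bile duct epithelium and every pancreatic duct organoid above pancreatic duct epithelium on scaled values. With 1 library per epithelium, whether the organs differ was not tested. Anxa10, an annexin of gastric epithelium, had 15.2 FPKM in bile duct epithelium and 0.637, 0.655 and 1.11 FPKM in bile duct organoids. In pancreatic duct epithelium it had 0.0282 FPKM, and the organoids had 1.33, 12.8 and 3.04 FPKM. The pancreatic duct epithelium value rests on 1 read, so the size of the change there is set by the pseudocount of 1. On the log2(FPKM + 1) scale the change was -3.30 ± 0.18 in bile duct and 2.27 ± 1.32 in pancreatic duct (SD, n = 3 organoids each), a gap of -5.58. S100a9, a neutrophil calprotectin subunit also made by stressed epithelium, had 12.9 FPKM in bile duct epithelium and 8.50, 1.25 and 1.87 FPKM in its organoids. In pancreatic duct epithelium it had 5.45 FPKM, and 5.97, 16.3 and 8.19 FPKM in its organoids. Its log2 change was -1.95 ± 1.16 in bile duct and 0.56 ± 0.69 in pancreatic duct (SD, n = 3 organoids each), a gap of -2.51, and pancreatic duct organoid 1 was above its epithelium by a small margin only. Neutrophil markers summed to 12.6 FPKM in bile duct and 2.54 FPKM in pancreatic duct epithelium, and their part was not tested.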

How the results depend on the processing

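The 6 members called higher in organoids, S100a6, S100a14, Anxa2, Anxa3, Anxa4 and Anxa8, each passed under every alternative that kept both epithelia. Leaving out either epithelium kept the sign of each of these rises. Of the alternatives with both epithelia, S100a10 passed under 2 and S100a11 under 3. Adding the reads of Gm12854 and Gm7665 changed only the S100a11 values, so that alternative is no separate check of the other members. Scaling moved the median of all genes from 0.11 to 0.23 (FPKM as deposited) and 0.25 (equal sum without mitochondrial genes); relative to the median, S100a10 differed by 0.21 and S100a11 by 1.00 in the reported fit. Over all genes, leaving out each library in turn gave 3052 to 4977 genes higher and 1250 to 4208 lower in organoids, against 4813 and 4024. Leaving out either epithelium lowered both numbers: 3052 and 1250 were without the pancreatic duct epithelium, and 3404 and 1353 without the bile duct epithelium. Without a filter, 6868 genes were called lower. Between the organoid groups, leaving out each culture gave 0 to 1 genes higher and 0 to 10 lower in bile duct, and the 11 calls, none of them a member, came without pancreatic duct organoid 3. With a pseudocount of 0.1, 1023 genes were at least 2-fold lower in bile duct than in pancreatic duct epithelium, against 651. With the replicate block, 0 members and 0 genes passed between the organoid groups. Same-numbered organoids deviated together at -0.10, -0.44 and 0.48 (correlation across genes), and bile duct organoid 1 with pancreatic duct organoid 2 at 0.65. These correlations do not show a pairing by number. With the replicate block the SE of S100a11 fell from 0.43 to 0.16, and the SE also fell for Anxa1, Anxa2, Anxa3 and Anxa8. For S100a6, S100a10, S100a14 and Anxa4 the SE did not fall. Each epithelium is 1 library, and the reads behind S100a4 (0 to 4) allow no comparison.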
